A study of Mus musculus with 2 samples.

Results

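Haemoglobin-dominated barcodes are the droplets of a kidney cell suspension whose RNA came mostly from the adult globin genes. A barcode was a member when Hbb-bs, Hbb-bt, Hba-a1 and Hba-a2 together made up at least 30% of its UMIs (unique molecular identifiers, each standing for 1 captured transcript). No other filter was applied. The members were thus chosen by the measured share of these 4 genes. They numbered 216 of 10804 barcodes: 74 of 5268 with I-PpoI and 142 of 5536 from wild-type mice.

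The data were droplet single-cell RNA sequencing of digested kidney cortex of 12-week-old mice, with 1 library of mice carrying the homing endonuclease I-PpoI in podocytes and 1 library of wild-type mice. I-PpoI cuts DNA at its recognition sites, and podocytes are the filter cells of the glomerulus; the driver of the enzyme and the number of mice behind each library are not given in the sources used here. The libraries held 37811289 and 27793633 UMIs. Since each group is a single library, no difference has a replicate check or a p-value, and the 95% intervals below cover counting error only.

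Red cells carry haemoglobin, a tetramer of alpha and beta chains that each hold a haem group. The last stage with RNA is the reticulocyte, which has lost its nucleus, still translates globin and clears its mitochondria and much of its other protein while its RNA decays. In the mouse the beta chains come from a pair of neighbouring genes and the alpha chains from another pair, so the RNA of a circulating red cell can be read chain by chain.

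Few barcodes had a haemoglobin share near the limit, which was set on that same share. Between 1% and 30% haemoglobin lay 9 barcodes of the I-PpoI library and 8 of the wild-type library. Just inside the limit were I-PpoI barcodes at 30.1% and 35.0% and wild-type barcodes at 32.4% and 33.6%, and just outside were 29.0% and 27.1% in I-PpoI and 28.8% and 28.5% in wild-type. The 4 globin genes chose the members, so their level is a description: the median member had 93.1% haemoglobin in I-PpoI and 87.8% in wild-type. Shares of 90% or more were found in 54 I-PpoI members (73.0%) and 53 wild-type members (37.3%), and shares of 70% to 90% in 13 and 65.

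**Figure D1:**
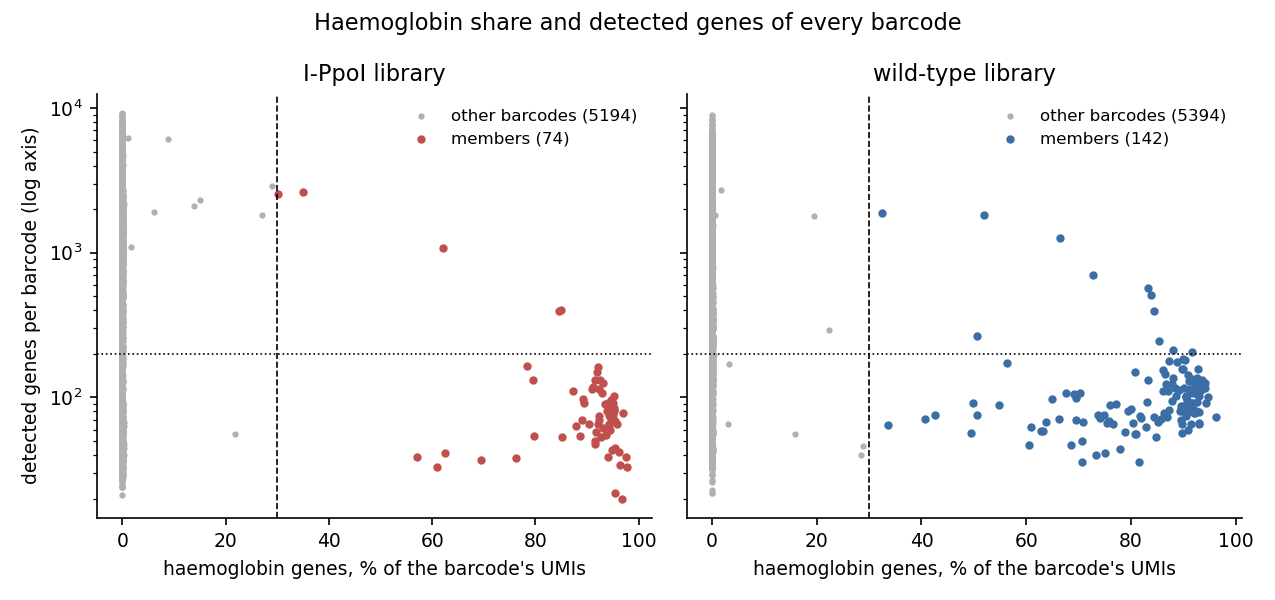
Each point is 1 barcode, with the haemoglobin share of its UMIs on the x axis and its detected genes on a log y axis, per library. Coloured points are the 74 and 142 members right of the dashed line at 30%, and the dotted line at 200 genes parts 69 and 131 members with few genes from 5 and 11 with many.

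The promoters of both beta-globin genes are shown because the split between these genes varied from member to member, and those of Alas2 and Bpgm because Bpgm RNA followed that split more closely than Alas2 RNA. Each line gives the 250 bases before the RefSeq transcription start on GRCm38.p6, read on the gene's strand. Capitals mark the letters CACCC of the box that Krüppel-like factors can bind, the letters CCAAT of a general promoter box and the letters GATAA of the GATA factor motif, each on either strand.
Hbb-bs, chr7:103827929-103828178, minus strand: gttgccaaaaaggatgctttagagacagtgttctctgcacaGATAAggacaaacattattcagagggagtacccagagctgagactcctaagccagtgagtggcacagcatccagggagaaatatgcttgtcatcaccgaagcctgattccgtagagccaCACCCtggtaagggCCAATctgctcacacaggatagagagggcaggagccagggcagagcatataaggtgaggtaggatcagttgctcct
Hbb-bt, chr7:103813924-103814173, minus strand: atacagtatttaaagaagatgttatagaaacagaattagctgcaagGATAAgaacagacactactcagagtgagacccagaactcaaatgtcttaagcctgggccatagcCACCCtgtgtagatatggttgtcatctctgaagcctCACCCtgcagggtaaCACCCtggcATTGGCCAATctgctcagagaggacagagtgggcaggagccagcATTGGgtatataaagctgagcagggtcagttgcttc
Alas2, chrX:150547167-150547416, plus strand: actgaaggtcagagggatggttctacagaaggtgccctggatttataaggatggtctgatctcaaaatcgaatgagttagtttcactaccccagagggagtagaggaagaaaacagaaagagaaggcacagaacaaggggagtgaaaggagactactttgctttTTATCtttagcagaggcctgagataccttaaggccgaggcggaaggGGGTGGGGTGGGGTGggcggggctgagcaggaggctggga
Bpgm, chr6:34476106-34476355, plus strand: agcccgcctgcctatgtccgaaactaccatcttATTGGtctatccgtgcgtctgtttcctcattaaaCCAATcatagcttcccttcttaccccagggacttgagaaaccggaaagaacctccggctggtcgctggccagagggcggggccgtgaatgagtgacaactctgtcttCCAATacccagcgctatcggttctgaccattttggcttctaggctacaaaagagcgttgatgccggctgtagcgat

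Both beta-globin windows held GATAA, at -209 in Hbb-bs and -204 in Hbb-bt counted from the start, and both held CACCC shortly before a CCAAT box, at -90 and -76 in Hbb-bs and at -89 and -75 in Hbb-bt. Hbb-bt held 2 more CACCC, at -140 and -104. In Alas2 the CACCC matches were 3 on the opposite strand between -40 and -30, with 1 GATAA on that strand at -86 and no CCAAT. Bpgm held CCAAT 3 times and neither of the others. Of 32851 promoter windows of this length, 52.0% hold CACCC, 33.8% CCAAT and 22.6% GATAA, so single matches are common. The beta-globin windows were identical at 69.3% of aligned positions and those of the alpha-globin genes at 97.6%.

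Members made up 1.40% of the barcodes of the I-PpoI library (1.10 to 1.76%, exact Clopper-Pearson interval) and 2.57% of those of the wild-type library (2.16 to 3.02%). The I-PpoI share was 0.548 of the wild-type share (0.408 to 0.730), and 0.554 (0.407 to 0.746) when only members with under 200 genes were counted. They held 95.2% and 99.3% of their library's haemoglobin UMIs. Whether the kidneys were flushed of blood is not given in the sources used here.

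Members had few genes for their UMIs. The median member had 5002.5 UMIs and 76.5 detected genes in I-PpoI and 4705.5 UMIs and 91.5 genes in wild-type, against 4580 UMIs and 1512.5 genes and 2612 UMIs and 581.5 genes in the other barcodes. At a fixed 100 non-haemoglobin UMIs the medians were 34 and 30.5 genes in members and 77 and 58 in the others, with 5 I-PpoI members too shallow to be thinned. The non-haemoglobin UMIs had a median of 324.5 (quartiles 243 to 402.75, range 30 to 11444) in I-PpoI and 456.5 (369.25 to 589.75, range 141 to 7109) in wild-type. A filter at 200 genes would have removed 69 of the 74 I-PpoI members (93.2%) and 131 of the 142 wild-type members (92.3%). No doublet caller was run, and 6 barcode sequences occurred in both libraries, 0 of them members.

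The markers given for erythroid cells were found in the members. Hbb-bs and Hba-a1, used by the rule, had a UMI in every member. Alas2, the erythroid form of the first enzyme of haem synthesis and not used by the rule, had a UMI in 68 of 74 I-PpoI members (91.9%) and 107 of 142 wild-type members (75.4%), against 4 (0.0770%) and 2 (0.0371%) of the other barcodes. Bpgm, which makes the red cell metabolite that lowers the oxygen affinity of haemoglobin, had a UMI in 37 I-PpoI members (50%) and 81 wild-type members (57.0%), against 10.1% and 7.27% of the other barcodes, whose median depths were 4580 and 2612 UMIs.

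Chain by chain, Hbb-bs was the most abundant transcript of the members in both libraries. It gave 183917 UMIs in I-PpoI and 308330 in wild-type, and Hbb-bt gave 26830 and 49654. Hbb-bs was thus 87.3% of beta-chain UMIs in I-PpoI (87.1 to 87.4%) and 86.1% in wild-type (86.0 to 86.2%). This difference turned round when each member counted equally, since the median member had 88.0% in I-PpoI and 91.2% in wild-type, a difference of -3.25 points against 1.14 points from the sums. Alpha chains were 32.4% of haemoglobin UMIs in I-PpoI and 33.7% in wild-type, a difference of -1.31 points, and single members ranged from 12.0% to 78.4% and from 21.0% to 62.1%.

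The alpha chains split between Hba-a1 and Hba-a2 at 60.2% Hba-a1 in I-PpoI (59.9 to 60.5%) and 56.9% in wild-type (56.6 to 57.1%). The same split in the other barcodes was 60.5% (59.2 to 61.8%) and 57.7% (55.2 to 60.1%), and each library's members lay within that interval. Most of that haemoglobin came from 11 barcodes in each library. In barcodes under 1% haemoglobin the split was 56.8% (50.5 to 63.0%) and 56.3% (50.7 to 61.9%), intervals that overlapped between the libraries. In the last 300 bases 80.1% of the 50-base words of Hba-a1 also occur in Hba-a2, against 36.7% of those of Hbb-bs in Hbb-bt. Reads of the alpha pair can therefore be divided only in part, and their split is uncertain. Embryonic Hbb-y was at 0 in both libraries and Hba-x at 1 UMI and 0.

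Outside the members haemoglobin RNA was thin. A haemoglobin UMI was found in 14.5% of the other I-PpoI barcodes (13.6 to 15.5%) and 14.6% of the other wild-type barcodes (13.7 to 15.6%). Their summed level was 422 and 138 CPM of all UMIs, of which 11 barcodes in each library with 5 or more such UMIs gave 94.7% and 76.4%. In barcodes under 1% haemoglobin the level was 23.2 CPM (21.7 to 24.8) in I-PpoI and 34.6 CPM (32.4 to 36.8) in wild-type. This low level is the background beside which the members stand, and its order between the libraries was the reverse of the order over all other barcodes.

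Beside haemoglobin, Gm42418 was the largest row of the members' RNA, with 27.4% of non-haemoglobin UMIs in I-PpoI and 37.5% in wild-type. Together with 2 much smaller rows, it is shown as a class of rows taken to overlap ribosomal RNA sequence. Whether the reads of these rows came from ribosomal RNA was not tested. Gm42418 and AY036118 (chr17:39846958-39848788 and chr17:39847113-39848035 on GRCm38, annotated as lincRNAs on opposite strands of one stretch) and Lars2 (chr9:123366927-123462666, a mitochondrial leucyl-tRNA synthetase) gave 29.8% of non-haemoglobin UMIs in I-PpoI and 40.7% in wild-type. In members under 200 genes they gave 57.1% and 50.1%, against 6.08% and 7.80% in the other barcodes. Reads of the overlapping pair can be told apart only by strand. Mitochondrially encoded genes gave 3.58% of the non-haemoglobin UMIs in I-PpoI and 19.0% in wild-type, and 7.87% and 33.2% in the other barcodes, so both sets were lower in I-PpoI. Genes of the red cell lists gave 14.9% and 9.27% of non-haemoglobin UMIs in members under 200 genes. Their order between the libraries depended on the total: they were 1.04% and 1.10% of all UMIs there, and 8.31% and 8.52% of non-haemoglobin UMIs over all members.

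**Figure D2:**
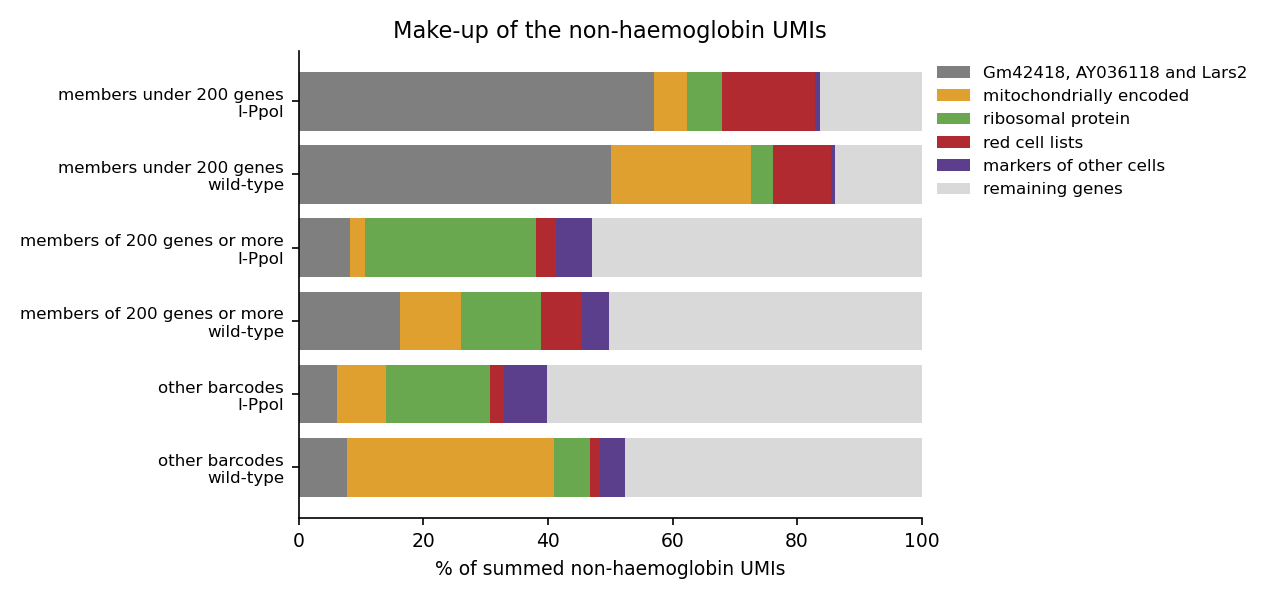
Stacked bars give the percent of summed non-haemoglobin UMIs in 6 gene classes, for members under 200 genes, members of 200 genes or more and other barcodes of each library. The 3 rows Gm42418, AY036118 and Lars2 take 57.1% and 50.1% in members under 200 genes, and mitochondrial genes 5.18% in I-PpoI and 22.5% in wild-type.

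Transcripts other than globin were then ranked by their CPM of non-haemoglobin UMIs in members over the other barcodes of the same library, which removes the part of the total that the rule fixed. Of 206 genes with at least 50 UMIs, 50 (24.3%) were over 2-fold higher in members in both libraries and 9 (4.37%) over 2-fold lower in both. The minimum was counted over members alone, so genes scarce in members could not enter, and the 2 counts are not to be set against each other. Alas2 headed the ranking. It was at 9929 CPM in I-PpoI members (479 UMIs) and 7263 CPM in wild-type members (645 UMIs), against 0.748 and 0.147 CPM in the others. Bpgm was at 4851 and 6881 CPM, 202-fold (174 to 234) and 355-fold (315 to 399) over the other barcodes.

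The haem and iron genes among the 20 highest were Slc25a37 (mitoferrin, which brings iron into mitochondria), with 75 and 90 UMIs, Fech (ferrochelatase, the last enzyme of haem synthesis), with 48 and 71, and Isca1 (an iron-sulphur cluster assembly factor), with 53 and 81. Of the 15 genes of haem synthesis, 4 had no UMI in any member: Uros, Cpox, Ppox and Abcb10. Of the 21 genes listed for ubiquitin and organelle clearance, 10 reached 50 UMIs. Of these, 6 were among the 20 highest of the 206 ranked genes. Mkrn1, a ubiquitin ligase, had 368 and 576 UMIs. Bnip3l, the receptor that takes mitochondria into autophagosomes in reticulocytes, had 121 and 218, and Gabarapl2, which helps to build those vesicles, 106 and 272. The ubiquitin-conjugating enzymes Ube2l6 (111 and 162), Ube2o (18 and 33), known for remodelling the reticulocyte proteome, and Ube2c (13 and 43), also on the cell cycle list, were the other 3. The ubiquitin ligase March2, on none of the lists, had 44 and 103. Epb41, protein 4.1 of the membrane skeleton, had 85 and 141 UMIs.

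The other leading genes were Fam46c (now Tent5c, a poly(A) polymerase), with 127 UMIs in I-PpoI and 168 in wild-type, Isg20, an exonuclease, with 56 and 148, Sec61g, a subunit of the translocation channel, with 305 and 587, and Ccndbp1 with 55 and 84. Fam220a had 91 and 223 and Rec114, otherwise known from meiotic recombination, 15 and 86. Rec114 had a UMI in 13 I-PpoI and 38 wild-type members, and its CPM ratio over the others was 5820 (1353 to 52449.8) and 6576 (2477 to 24682). In contrast, the list of 17 erythroid transcription factors and receptor genes gave few UMIs, 18 in I-PpoI and 17 in wild-type. That was 373 and 191 CPM, against 277 and 252 CPM in the other barcodes. In members under 200 genes the list gave 2 and 7 UMIs. Of the 17, 9 had no UMI in any member, among them Klf1, Tal1, Nfe2, Gfi1b and the receptor gene Epor. Gata1 had 0 and 1, and a count of 0 allows up to 62.2 and 33.8 CPM in the 2 libraries. Of 21 cell cycle genes, 13 had no UMI, and Ube2c gave 13 of the list's 20 UMIs in I-PpoI and 43 of 51 in wild-type. The share of all genes without a UMI in members is not given here. Counts of genes at 0, in these lists and in others, thus stand without a background. Platelet genes gave 3 and 0 UMIs.

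Some of the members of 200 genes or more carried transcripts of other cells. Among the 5 in I-PpoI, 4 had at least 100 UMIs of the 15 macrophage markers (890, 371, 155 and 107), with Apoe, Lyz2, C1qa or the MHC class II genes Cd74, H2-Aa and H2-Eb1 among their leading genes. The markers were not shared evenly. The member with 890 held 421 UMIs of Apoe, 221 of Lyz2, 63 of C1qa and 0 of Cd74. The member with 371 held 304 of Cd74, 3 of Lyz2 and 0 of Apoe and C1qa, so its count was mostly Cd74. The fifth, at 396 genes, was led by Fabp4, a fatty acid carrier of fat cells and capillary endothelium. Of the 11 in wild-type, 1 had 536 UMIs of proximal tubule markers with Kap, the androgen-dependent kidney protein, in front, and 2 more led by Kap had 26 and 24 such UMIs. Of the rest, 1 had 330 macrophage UMIs, 1 had 63 endothelial UMIs and 1 had 26 UMIs of T and NK cell markers. The other 5 had at most 10 UMIs of any 1 list of other cells' markers, with Alas2 among the 10 leading genes of each. Their haemoglobin shares were lower, with medians of 62.1% and 83.2%. In members under 200 genes, markers of other cells were 0.771% and 0.680% of non-haemoglobin UMIs. Whether such barcodes held 2 cells was not tested.

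Members under 200 genes differed among themselves in the split of their beta chains. Hbb-bt was 0% to 23.4% of a member's beta-chain UMIs in I-PpoI (median 11.8%, quartiles 5.39 to 14.0%) and 0% to 23.7% in wild-type (median 8.28%, quartiles 3.97 to 16.2%). Members below 5% were 17 of 69 in I-PpoI (24.6%) and 47 of 131 in wild-type (35.9%). At 15% or more were 15 I-PpoI members (21.7%) and 41 wild-type members (31.3%).

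Bpgm followed this split in both libraries. Per 10000 haemoglobin UMIs it was at 0.329 (0.00833 to 1.83), 0.894, 7.29 and 13.1 (10.7 to 15.8) in I-PpoI members with under 5%, 5 to 10%, 10 to 15% and at least 15% Hbb-bt. In wild-type it was at 1.62 (0.777 to 2.98), 2.66, 10.9 and 16.3 (14.7 to 17.9). The intervals of the lowest and highest bands did not overlap in either library. Across members, the Spearman correlation of Bpgm with the Hbb-bt share was 0.71 (n = 69) and 0.68 (n = 131), and 0.67 (n = 45) and 0.64 (n = 75) among members with at least 3000 haemoglobin UMIs.

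Genes of the clearance list differed in whether they went with the split. Mkrn1 was at 5.92 per 10000 haemoglobin UMIs (3.51 to 9.36) in the lowest band and 11.0 (8.90 to 13.5) in the highest in I-PpoI, intervals that overlapped. In wild-type it was at 1.13 (0.456 to 2.34) and 14.7 (13.3 to 16.3). Bnip3l was at 0.658 and 4.92 in I-PpoI and at 1.78 and 5.45 in wild-type, and Gabarapl2 at 0.329 and 4.32 and at 1.62 and 6.44. Ube2l6 was at 3.29 and 3.00 in I-PpoI and at 1.78 and 2.90 in wild-type. Ubb, a ubiquitin gene, was lower in the highest band in I-PpoI (18.1 and 12.2) and higher in wild-type (11.3 and 17.7). Among members with at least 3000 haemoglobin UMIs, the correlation of Mkrn1 went from 0.46 to 0.09 in I-PpoI and from 0.79 to 0.51 in wild-type, and that of Ube2l6 from 0.29 to -0.05 and from 0.41 to -0.01. Gabarapl2 was at 0.50 and 0.45 in these members and Bnip3l at 0.30 and 0.56. Gpx1, a selenium-dependent peroxidase, correlated at 0.41 and 0.60 over all members under 200 genes and at 0.18 and 0.61 in the deeper ones. Gm42418 was at -0.35 and -0.71, and at -0.06 and -0.45 in the deeper ones. Alas2 varied less, at 17.1, 13.4, 14.6 and 14.6 over the bands in I-PpoI and at 7.77, 11.5, 10.6 and 12.5 in wild-type. In wild-type its lowest and highest bands did not overlap (5.73 to 10.3 and 11.2 to 14.0), whereas in I-PpoI they did. Its correlations were 0.15 in I-PpoI and 0.39 in wild-type, and -0.01 and 0.26 in the deeper members.

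Over the 20 leading genes, correlations with the Hbb-bt share were above 0 in both libraries for 20, and over 0.3 in both for 12. Among members with at least 3000 haemoglobin UMIs these counts were 17 and 3. The same share over all genes is not given here, so these counts do not set the leading genes apart from others. The Hbb-bt share also correlated with a member's haemoglobin UMIs (0.74 and 0.84) and detected genes (0.70 and 0.77), so the split, the depth and these transcripts moved together and the part of depth was not tested beyond that restriction. The points share a library, and low counts give many zeros.

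**Figure D3:**
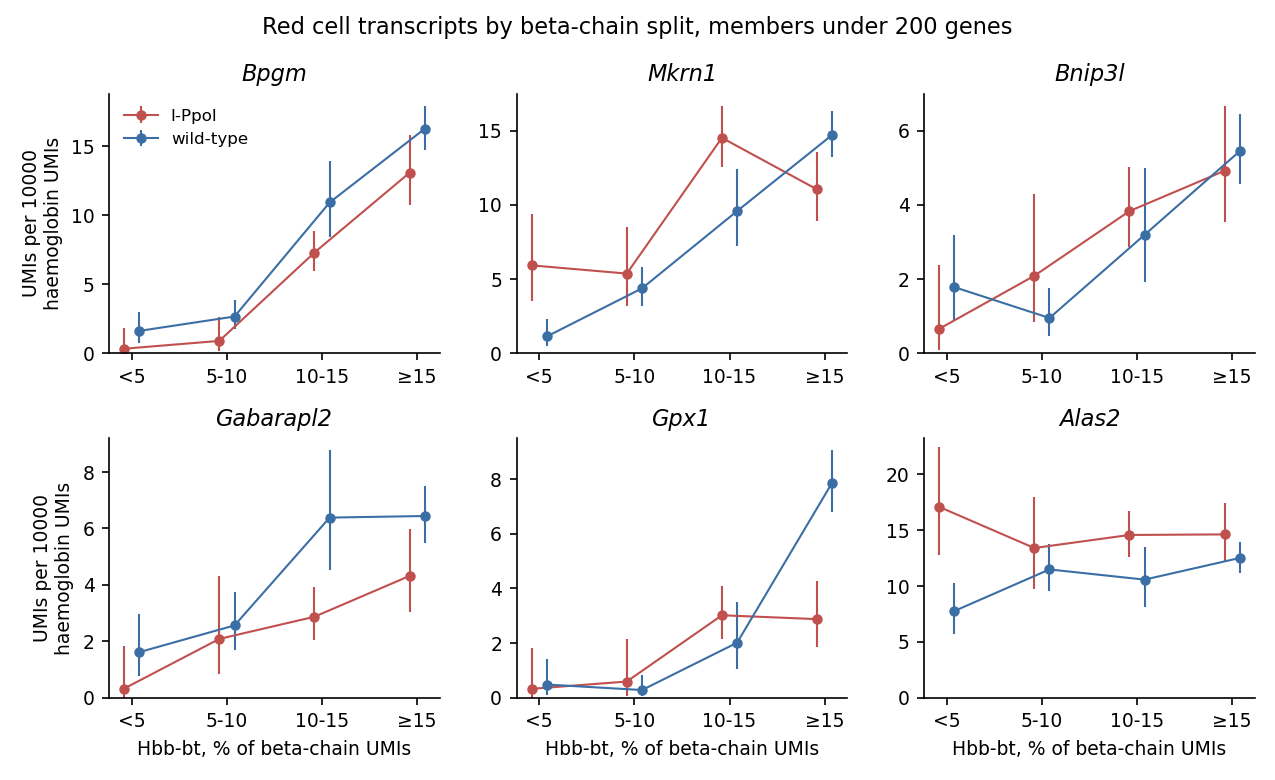
Points give UMIs per 10000 haemoglobin UMIs of 6 genes in members under 200 genes, summed over bands of the Hbb-bt share of beta-chain UMIs (x axis), with exact 95% Poisson intervals as bars, for I-PpoI (red) and wild-type (blue). Bpgm goes from 0.329 to 13.1 in I-PpoI and from 1.62 to 16.3 in wild-type, whereas Alas2 lies between 7.77 and 17.1 in all bands.

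Between the libraries, members under 200 genes were compared first. They held 164 of the 1730 UMIs of other cells' markers in I-PpoI members and 436 of the 1509 in wild-type members. Of 97 genes with at least 50 UMIs, 17 (17.5%) were over 2-fold higher in I-PpoI and 15 (15.5%) over 2-fold lower by CPM of non-haemoglobin UMIs, and the median gene was at 0.44 on the log2 scale. Set against haemoglobin UMIs instead, 2 (2.06%) were higher and 23 (23.7%) lower, with a median of -0.39. Relative to the median gene both scales give the same values, and these follow, as log2 differences of I-PpoI minus wild-type.

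The 15 lower genes were 12 mitochondrially encoded genes and Kap, Fxyd2 and Pabpc1. The mitochondrial genes lay between -1.70 (mt-Atp8) and -3.33 (mt-Nd2), and the largest, mt-Atp6, had 270 UMIs in I-PpoI and 3501 in wild-type. The other barcodes also had a lower mitochondrial share in I-PpoI, and the part of that RNA in the members' difference was not tested. Kap was at -4.01, with 4 UMIs in 1 of 69 I-PpoI members and 161 UMIs in 77 of 131 wild-type members, at most 11 in a barcode. Its level in the other barcodes was 227 and 10050 CPM. In members under 200 genes the 18 proximal tubule markers together gave 39 UMIs in 17 I-PpoI and 388 UMIs in 113 wild-type barcodes, 0 to 20 and 0 to 18 per barcode, with Slc5a2 at 0 in all members. Fxyd2, a subunit of the sodium pump and 1 of these markers, was at -2.02 with 6 and 58 UMIs. In the other barcodes it was also lower in I-PpoI, at 1044 and 2728 CPM. Pabpc1, the cytoplasmic poly(A)-binding protein, was at -1.88 with 12 and 102 UMIs. In the other barcodes Pabpc1 was higher in I-PpoI, at 338 and 120 CPM. The part of free RNA in the difference of Fxyd2 was not tested.

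Spp1, the secreted phosphoprotein osteopontin, was the highest, at 3.35. It had 43 UMIs in 34 of 69 I-PpoI members, at most 3 in a barcode, and 9 UMIs in 8 of 131 wild-type members. In the other barcodes it was at 13753 and 716 CPM. The part of free RNA in the differences of Spp1 and Kap was not tested. Arf5, a small GTPase, was at 1.67, with 79 and 55 UMIs and 2.43 times the wild-type level per haemoglobin UMI (1.70 to 3.49). In the other barcodes Arf5 was also higher in I-PpoI, at 204 and 83.8 CPM, and the part of free RNA in its difference was not tested either.

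Haem synthesis genes lay above the median gene in members under 200 genes. All 4 that could be measured did so, with a median of 0.65 above it: Slc25a37 at 0.98 (62 and 70 UMIs), Alas2 at 0.76 (417 and 547), Slc25a39, a mitochondrial glutathione carrier, at 0.55 (61 and 93) and Fech at 0.51 (39 and 61). By CPM, Alas2 and Slc25a37 were past 2-fold, 2 of 4 against 17.5% of all genes, but per haemoglobin UMI 0 of 4 were, against 2.06%. Per haemoglobin UMI the ratios of I-PpoI to wild-type were 1.29 for Alas2 (1.13 to 1.46), 1.50 for Slc25a37 (1.05 to 2.14), 1.11 for Slc25a39 (0.788 to 1.55) and 1.08 for Fech (0.703 to 1.64), so the last 2 intervals held 1. Of 8 clearance genes, 6 lay above the median gene, with a median of 0.22: Ubb at 0.68 and Mkrn1 at 0.59 were among the higher, and Gabarapl2 at -0.36 was the lowest.

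The metabolic and antioxidant genes were divided, with a median of -0.12 and 2 of 5 above the median gene. Prdx2, the main peroxiredoxin of red cells, was at 1.11 (95 and 98 UMIs) and Car2, a carbonic anhydrase, at 0.83, whereas Bpgm was at -0.12 (212 and 512), Gpx1 at -0.51 (68 and 216) and Glrx5, a glutaredoxin of iron-sulphur assembly, at -1.01 (9 and 42). Of the iron storage genes, ferritin Ftl1 was at -0.46 (205 and 625) and Fth1 at -0.49 (123 and 384). The ranked gene Rec114 was at -1.19 (13 and 68). Fam46c was at 0.87 (111 and 135).

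With all members the picture differed. Of 206 genes, 93 (45.1%) were over 2-fold higher in I-PpoI and 28 (13.6%) lower, with the median gene at 0.66. Per haemoglobin UMI the counts were 93 (45.1%) and 29 (14.1%). Of the 93 by CPM, 63 were ribosomal protein genes, of 69 such genes tested. In I-PpoI 7430 of the 8649 ribosomal protein UMIs lay in the members of 200 genes or more, and in wild-type 3199 of 5491. Under 200 genes, 2 of 21 ribosomal protein genes were over 2-fold higher. The 30 others of the 93 included the macrophage genes Lyz2, with 235 UMIs against 0, Il1b, with 57 against 0, and Apoe, with 580 against 41. Single barcodes carried these sums: 1 I-PpoI member held 221 of the Lyz2 UMIs, 1 held 51 of the Il1b UMIs and 1 held 421 of the Apoe UMIs. Without the barcode that held most of each, Lyz2 and Il1b had 14 and 6 UMIs and would not have reached the minimum of 50. The macrophage markers gave 1588 UMIs in all I-PpoI members and 346 in wild-type, of which 1528 and 344 lay in the members of 200 genes or more. Of the 15 markers, 14 had a UMI in I-PpoI members and 10 in wild-type members, and none was at 0 in both. In members under 200 genes they gave 60 UMIs in 30 of 69 barcodes, 0 to 16 per barcode, and 2 UMIs in 2 of 131, and a macrophage UMI was found in 84.7% and 32.5% of the other barcodes. Igfbp5 had 0 and 53 UMIs, of which 43 lay in 1 wild-type member and 1 in members under 200 genes. Over all members, none of the 4 haem synthesis genes lay above the median gene, with a median of -0.28. In members under 200 genes, which leave out 5 and 11 gene-rich barcodes, the median was 0.65. The place of this list also turned under other choices of members given below, and which barcodes carried the turn was not tested.

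**Figure D4:**
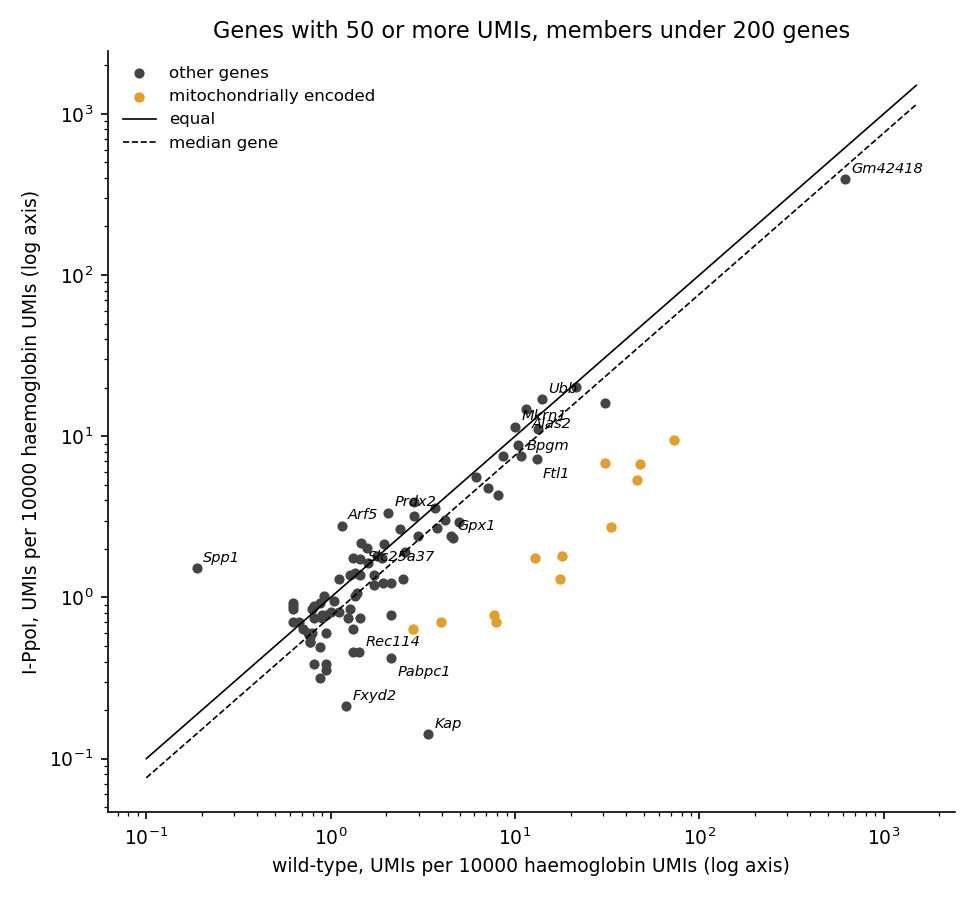
Each point is 1 of 97 genes with at least 50 UMIs in members under 200 genes, with UMIs per 10000 haemoglobin UMIs in wild-type (x axis) and I-PpoI (y axis) on log axes. The solid line marks equal levels and the dashed line the median gene at -0.39 on the log2 scale; Spp1 lies above both lines, and Kap and the 12 mitochondrial genes below.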

How the data were processed

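The deposited matrices hold whole-number UMI counts per gene and barcode (31053 genes), made by the authors with Cell Ranger and an mm10 reference package, per the labels' protocols. The labels name version 3.1 and the file headers version 6.0.2. Every barcode held at least 500 UMIs, and no further filter or doublet removal was applied here. The barcode set was proposed, and members and gene lists were chosen, with earlier results of these data known.

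Members were barcodes with at least 30% of UMIs from 4 globin genes. UMIs were summed per library and set as CPM of non-haemoglobin UMIs or per 10000 haemoglobin UMIs, with Poisson, Clopper-Pearson and conditional binomial 95% intervals (scipy 1.17.1, numpy 2.4.6). A log2 ratio had 0.5 added to each sum, and a call meant over 2-fold among genes with 50 UMIs or more. Named were the globins, Alas2 and Bpgm, the 20 non-globin genes ranked highest by the lower bound of members over other barcodes in the weaker library, the first 10 each way between libraries by the bound nearest 1, and up to 6 genes per list; the examples from these were picked after their values were seen, and 1 ranked gene is not reported here. Of 372 list entries 369 matched. The ratio intervals between libraries over all members were tested on simulated counts with 200 changed genes, of which 117 reached the UMI minimum, beside 104 unchanged genes. Promoters are RefSeq's on GRCm38.p6, and all 4 printed genes matched. Gene coordinates come from GENCODE release 21 on GRCm38. Alternatives covered the 30% limit, gene, mitochondrial and UMI filters, totals, UMI minimum and weighting. The split at 200 genes, the haemoglobin scale and the bands of Hbb-bt were chosen after the data were seen.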

Additional observations from a re-analysis of the deposited data

How the results depend on the processing

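No paired analysis was possible because each group has 1 library. The ratio of member shares kept its direction under all 7 alternatives. Where a value moved, the cause was not tested. The alpha share difference was -2.55 points at 200 genes or more, -1.05 without the 5% of members with most UMIs and -1.59 by medians over barcodes. The Hbb-bs difference was 2.90, 0.722 and -3.25 points in these, and 0.880 under 200 genes. The Hba-a1 difference was 2.90 points at 200 genes or more. Members of 200 genes or more had medians of 9463 and 8439 UMIs, 71 and 68 thinned genes and 0.958% mitochondrial UMIs in I-PpoI, and the wild-type thinned median was 33.5 at a 70% limit.

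Genes over 2-fold higher in I-PpoI numbered 93 over all members, 18 at a 50% limit, 13 at 70%, 55 at 200 genes or more, 16 without the 5% with most UMIs, 17 under 200 genes, 164 with a minimum of 20 UMIs and 50 by the mean of barcode shares. Under 200 genes per haemoglobin UMI they were 2, and 1 with at least 10% Hbb-bt. Genes over 2-fold lower numbered 28, then 17 at both limits, 15 without the 5% with most UMIs, 15 under 200 genes, 76 with 20 UMIs and 18 with 100 UMIs. The number of genes tested changed with the setting, so these counts cannot be set against each other as shares. It was 206 over all members (45.1% higher, 13.6% lower) and 97 under 200 genes (17.5% and 15.5% by CPM). With at least 10% Hbb-bt it was 70.

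List medians relative to the median gene turned under some alternatives for haem synthesis, clearance, other reticulocyte and metabolic genes. They turned under none of the alternatives with a value for iron genes and the macrophage and proximal tubule markers. The macrophage list had 0 genes with 50 UMIs in members under 200 genes. It thus had no value in the alternatives under 200 genes and could not turn there. For haem synthesis the value over all members of -0.28 became -1.04 at a 20% limit, 0.56 at 50%, 0.59 at 70%, 0.75 without the 5% with most UMIs, 0.65 under 200 genes on both totals, 0.60 with at least 10% Hbb-bt, -0.61 with 100 UMIs and 0.48 by the mean of barcode shares. For clearance genes it was -0.80, then in the same order -1.53, 0.13, 0.051, 0.37, 0.22 and 0.12, with -2.17 at 200 genes or more and -0.13 by the mean. For reticulocyte genes of other roles it was -0.67, then -1.47, 0.22, 0.27, 0.40, 0.26 and 0.53, with -0.017 by the mean. For iron genes it was -0.92, then -1.58, -0.37, -0.38, -0.36 and -0.46, with -1.18 without mitochondrial genes and -0.50 by the mean. Metabolic genes were at -1.45, but at 0.49 without the 5% with most UMIs and 0.16 with at least 10% Hbb-bt. Macrophage markers were at 1.70, at 0.055 with a 50% limit and at 0.34 at 200 genes or more, and proximal tubule markers at -3.86, or -1.80 with a 70% limit.

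Haemoglobin in the other barcodes was 139 and 46.7 CPM under 10% haemoglobin and 23.2 and 34.6 CPM under 1%. The alternatives under 200 genes, per haemoglobin UMI, by Hbb-bt share and under 1% were chosen after seeing the data. A median of 305 and 443 non-haemoglobin UMIs per member under 200 genes limits what 1 barcode shows of a gene, so levels are sums over members.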

Other observations

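Lists outside red cell biology were sparse in members under 200 genes. The 18 p53 target genes gave 2 UMIs in I-PpoI and 3 in wild-type, and 9 of the 18 had no UMI in any member. The 18 interferon response genes gave 16 UMIs (0.0752% of non-haemoglobin UMIs, 0.0430 to 0.122%) and 41 UMIs (0.0640%, 0.0459 to 0.0868%). Immediate early and heat shock genes gave 32 UMIs (0.150%, 0.103 to 0.212%) and 80 UMIs (0.125%, 0.0990 to 0.155%). The intervals of the libraries overlapped for both lists. Podocyte and parietal markers gave 2 UMIs and 1 UMI, B cell markers 6 and 2, fibroblast and mural markers 5 and 5, neutrophil markers 2 and 0, and thick ascending limb markers 0 and 16.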
